A study of Mus musculus with 3 samples.

Results

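The genes described here hold neighbouring cells together or let blood cells hold on to the vessel wall. They are the numbered cadherins and claudins, the catenins, nectins and afadin, the JAM family, occludin and the tight junction plaque genes, and the immunoglobulin adhesion molecules, selectins and sialomucins of vessels. They were chosen by gene symbol and numbered 80 of the 21303 protein-coding genes in a table of 39304 rows. The starting tissue was the glomeruli, the capillary tufts that filter blood in the kidney, and it came from a male C57BL/6 mouse, wild type and aged 8 weeks. A Fluidigm C1 instrument separated and lysed the single glomerular cells and made cDNA from each, and qPCR of marker genes, among them Pecam1 (CD31), gave each well its cell type. Both cell types were then combined, with cDNA from 15 mesangial cells (contractile cells that support the capillary loops) and from 15 endothelial cells (the lining of the loops), and the mixture was split into 3 aliquots that became 3 libraries.

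All libraries thus form 1 group from 1 mouse. Each SD below is over these aliquots (n = 3) and covers library construction and sequencing, not differences between animals. Values are FPKM, read numbers scaled to gene length in kilobases and to 1000000 reads in the library, so levels of different genes can be set side by side as far as the gene lengths hold. The library totals behind them were 9141422, 10427635 and 10976563 reads. The read numbers given below were recovered from the steps of the FPKM values. Which of the 2 mixed cell types a transcript came from cannot be told, nor can fewer cells of a type be told apart from less RNA per cell. Markers of the labelled types were detected for 11 of 13 endothelial and 9 of 9 mesangial genes, where detected means at least 1 FPKM in every aliquot. The endothelial genes Vwf and Nos3 were the exceptions, at 0.162 ± 0.0515 FPKM for Vwf and with 1 read in all for Nos3. Podocyte markers were detected for 7 of 10 genes, with a summed level of 234 to 249 FPKM. The endothelial markers summed to 1509 to 1530 FPKM and the mesangial markers to 8719 to 9163 FPKM. These lists differ in size and in their genes, so the sums do not measure the amounts of the cell types. Smooth muscle markers were detected for 4 of 5 genes. All 5 parietal epithelial, 8 tubule and 7 leukocyte markers were listed at 0.

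As background, endothelial cells join through adherens junctions and tight junctions that share the same narrow strip of membrane. In an adherens junction the outer parts of cadherins bind each other across the gap, and catenins tie their tails to actin. In a tight junction claudins form strands that seal the gap or leave selective pores, occludin and the JAM proteins accompany them, and the ZO proteins (Tjp genes) hold the complex from inside. Claudin-5 (Cldn5) is the best known claudin of vessels, and within the glomerulus it is known from podocytes as well. Glomerular endothelium is perforated by open pores and lets much fluid pass.

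Of the 80 genes 25 were detected (31.25%), against 36.4% of all protein-coding genes, and 47 were listed at 0 in every aliquot (58.75%), against 54.6% of all. The detected share thus lay near the background, but it differed widely between families. Only 1 of 23 cadherins and 1 of 23 claudins were detected, while 23 of the other 34 genes were. All 4 JAM family genes and all 3 sialomucins were detected, as were 4 of 7 catenins, 3 of 5 nectins and afadin, 3 of 6 genes of the tight junction plaque and 6 of 9 immunoglobulin adhesion molecules and selectins. Among the 33 genes above 0 the median level was 31.8 FPKM, against 12.9 FPKM for the 9666 protein-coding genes above 0. This grouping of the families was made with earlier results of these data known and carries no test.

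**Figure D1:**
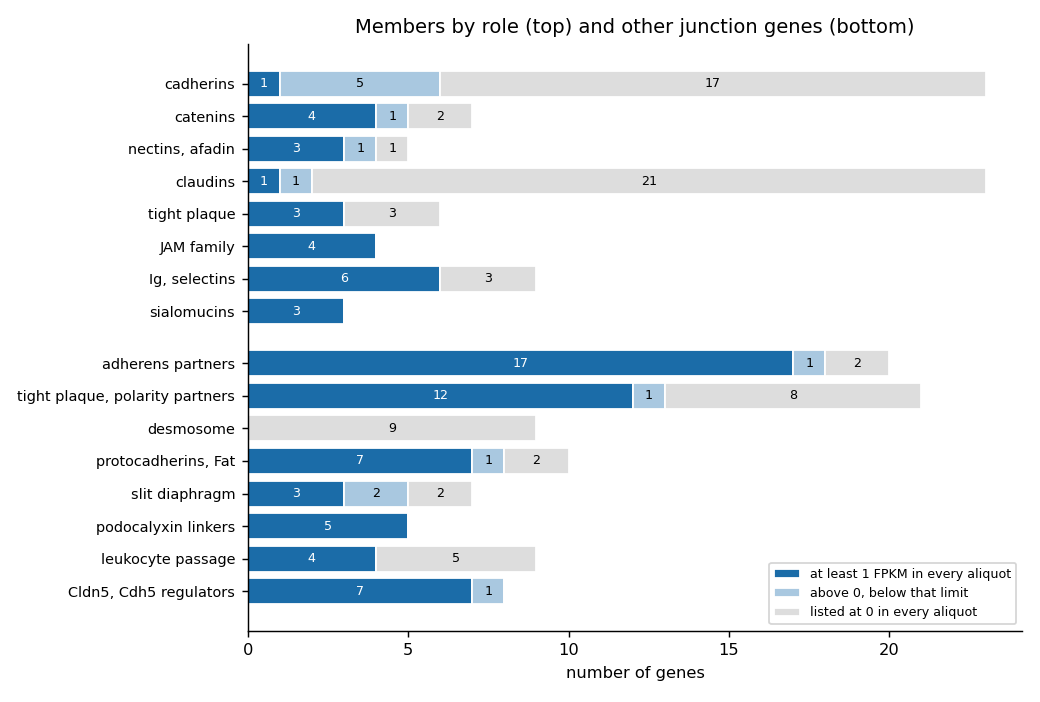
Number of genes (horizontal axis) in each family of the 80 genes (upper bars) and in lists of other junction genes (lower bars), divided into those with at least 1 FPKM in every aliquot, those above 0 but below that limit, and those listed at 0. Cadherins and claudins have 1 detected gene each of 23, and desmosome genes have none of 9.

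A value of 0 in this table is reported only as listed. Several genes that most cells use were listed at 0 in every aliquot too, among them Srsf4, which encodes a splicing factor, Cox20, needed to assemble cytochrome oxidase, and Mrps22 of the mitochondrial ribosome. These were named after their values were seen. For the 47 junction genes at 0, annotated exons and transcripts were compared with those of the other genes. In 9 of them some exon bases overlapped another gene of the table or some transcript sequence matched another gene by at least 95% identity over 100 bases. The other 38, Cldn5 and the occludin gene Ocln among them, had neither.

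Among the cadherins, Cdh5 was almost the whole of the family. VE-cadherin, which Cdh5 encodes (ENSMUSG00000031871, chromosome 8, 104101625 to 104144511, plus strand, GRCm38), is the adherens junction cadherin of endothelium. Its level was 34.9, 30.5 and 29.9 FPKM in aliquots 1, 2 and 3 (31.8 ± 2.70 FPKM), resting on 3849 reads. Aliquot 1 was the highest, and the other aliquots lay close together. Cdh5 made up 98.9% ± 0.202 of the summed FPKM of all 23 cadherins. Cdh2, which encodes N-cadherin, a cadherin of mural and many other cells, followed with 0.247, 0.192 and 0.205 FPKM (0.215 ± 0.0284 FPKM) from 26 reads over an implied gene length of 3993 bases, against 3986 for Cdh5. The log2 ratio of Cdh5 to Cdh2, after 1 FPKM was added to each, was 4.75 ± 0.0859, and it was 6.66 with 0.1 FPKM added. Cdh11, the cadherin of many mesenchymal cells, rested on 8 reads (0.0624 ± 0.0470 FPKM) and Cdh10 on 3. Cdh13, which encodes the membrane-anchored T-cadherin of vessels and was named after its values were seen, had 1 read in aliquot 2 and 0 in the others. Cdh4 likewise had 1 read in aliquot 2, and the other 17 cadherins were listed at 0.

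The cytoplasmic partners of cadherins were detected as a complete set of the widely expressed forms. Ctnnb1, which encodes the beta-catenin that binds cadherin tails, had 223, 216 and 221 FPKM (220.1 ± 3.99 FPKM). Its relative Jup, which encodes plakoglobin and takes the same place on the tail, had 64.5, 59.6 and 62.2 FPKM (62.1 ± 2.47 FPKM). The aliquot ranges of these genes were far apart, and the log2 ratio of Ctnnb1 to Jup was 1.81 ± 0.0314.

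Ctnna1, the alpha-catenin that reaches actin, had 145, 146 and 151 FPKM (147 ± 3.16 FPKM). Ctnnd1, the p120-catenin that keeps cadherins at the surface, had 43.8, 46.6 and 45.3 FPKM (45.2 ± 1.40 FPKM). The tissue-restricted forms were at or near 0: Ctnna3, the alpha-catenin of heart and testis, had 10 reads (0.127 ± 0.0927 FPKM), and the neural genes Ctnna2 and Ctnnd2 were listed at 0. Ctnna1 exceeded Ctnna3 by a log2 ratio of 7.04 ± 0.143 with 1 FPKM added to each, and of 9.43 with 0.1 FPKM added. Summed over each family, catenins had 468 to 479 FPKM and the numbered cadherins 30.2 to 35.2 FPKM. The size of this gap depends on gene length. With the longest transcripts as lengths, Ctnnb1 had 91.0, Ctnna1 146, Ctnnd1 35.2 and Jup 26.5 FPKM, against 31.7 FPKM for Cdh5. Of the exon bases of Ctnnb1, 14.6% overlap those of Ulk4 on the opposite strand, and Ulk4 was listed at 0 in every aliquot.

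Of a list of 20 other genes that work at adherens junctions, 17 were detected, against 36.4% of all protein-coding genes. The same 36.4% stands beside the counts of the other lists below. All lists were picked with earlier results of these data known, so their counts describe the lists only. The LIM domain gene Lmo7, which links nectin and cadherin complexes, led with 578, 593 and 572 FPKM (581 ± 11.04 FPKM). Heg1, a receptor that steadies endothelial junctions through the CCM proteins, had 376 ± 6.92 FPKM, the angiomotin relative Amotl1 had 213 ± 2.21 FPKM and the small GTPase gene Rap1b 171 ± 3.69 FPKM. The p120 relative Arvcf had 2 reads in all, and Camsap3 and Plekha7, which anchor microtubules at epithelial adherens junctions, were listed at 0.

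Nectins are immunoglobulin-type adhesion molecules that start a contact and connect to actin through afadin. Nectin3 was the main one with 119, 119 and 125 FPKM (121 ± 3.47 FPKM), 89.5% ± 0.537 of the summed FPKM of the nectins and afadin. Nectin2 had 5.79, 5.15 and 4.93 FPKM (5.29 ± 0.442 FPKM) and the afadin gene Afdn 8.61, 9.16 and 8.77 FPKM (8.85 ± 0.281 FPKM). Nectin3 thus stood far above its partners in every aliquot. Nectin1 was below the limit with 25 reads (0.166 ± 0.0628 FPKM), and Nectin4 was listed at 0. The lead of Nectin3 depends in size on gene length. The values imply a length of 1908 bases, while its longest annotated transcript has 9116. On the log2 scale the ratio of Nectin2 to Nectin3 was -4.28 ± 0.132 as deposited and -2.25 with the longest transcripts as lengths.

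The claudins were examined to see which were measured beside Cldn5. Cldn5 (ENSMUSG00000041378, chromosome 16, 18776847 to 18778262, plus strand, GRCm38) has 1 annotated transcript of 1416 bases and was listed at 0, 0 and 0 FPKM. Cldn15 (ENSMUSG00000001739, chromosome 5, 136966616 to 136975858, plus strand) encodes a claudin known for forming cation pores in the gut, and it was the only claudin detected. Its level was 52.5, 53.5 and 55.8 FPKM (54.0 ± 1.68 FPKM) from 2407 reads, and it made up 98.4% ± 0.430 of the summed claudin FPKM. Cldn12, which encodes a claudin without the usual scaffold-binding tail, had 0.700, 0.789 and 1.21 FPKM from 61 reads, so that it passed 1 FPKM in aliquot 3 only. The other 20 claudins were listed at 0 together with Cldn5. With a limit of 0.5 FPKM, Cldn12 counted as a second detected claudin. By mean level Cldn15 held rank 2042 among the 21303 protein-coding genes and Cdh5 rank 3047.

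The 250 bases before the RefSeq start of each gene are printed here (RefSeq, GRCm38.p6) because Cldn15 was the detected claudin and Cldn5, a claudin listed at 0, is the best known of vessels. Capitals mark GGAA or TTCC, the letters at the core of binding sites of ETS factors on either strand. The Cldn5 stretch is chr16:18776597-18776846 and the Cldn15 stretch chr5:136967619-136967868, both plus strand. The RefSeq start of Cldn15 lies inside the gene as annotated by GENCODE.
Cldn5: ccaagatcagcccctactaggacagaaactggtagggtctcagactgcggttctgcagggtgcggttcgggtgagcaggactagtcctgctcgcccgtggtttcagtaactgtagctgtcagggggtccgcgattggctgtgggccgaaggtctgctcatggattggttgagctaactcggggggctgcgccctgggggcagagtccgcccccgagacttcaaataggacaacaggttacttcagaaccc
Cldn15: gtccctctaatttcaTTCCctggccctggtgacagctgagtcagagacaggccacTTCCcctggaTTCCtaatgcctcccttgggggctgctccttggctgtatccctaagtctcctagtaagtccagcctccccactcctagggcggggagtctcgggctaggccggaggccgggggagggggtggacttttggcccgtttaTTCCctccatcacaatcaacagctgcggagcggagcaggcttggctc
The Cldn5 stretch held 0 of these matches and the Cldn15 stretch 4. At least 1 match is present in 93.4% of the 32851 stretches of the same length in RefSeq, with a median of 3. At least as many as before Cldn15 are present in 33.4%. The dinucleotide CG occurred 12 times before Cldn5 and 7 times before Cldn15, against a median of 6. The letters CACCC or GGGTG gave 2 matches before Cldn5 and 1 before Cldn15, against a median of 1. For TATAAA or TTTATA both stretches held 0. A match of letters is a description only. Of 8 genes known to regulate Cldn5 or Cdh5, 7 were detected. The ETS factor gene Fli1 had 239, 217 and 207 FPKM (221 ± 16.2 FPKM), the receptor genes Kdr and Tek 143 ± 4.77 and 42.2 ± 1.07 FPKM, and the forkhead gene Foxo1, whose product is known to repress Cldn5, 25.6 ± 0.179 FPKM. Lower among the detected ones were the ETS factor gene Erg (8.70 ± 0.671 FPKM), Tal1 (2.72 ± 0.221 FPKM) and Sox17 (2.66 ± 0.451 FPKM). Sox18 was the gene below the limit, with 0.222 ± 0.145 FPKM. Whether any of these regulators bears on the listed Cldn5 value was not tested.

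Of occludin and the tight junction plaque genes, 3 of 6 were detected, and genes of the plaque were among those at 0. Ocln, which encodes occludin, was listed at 0 in every aliquot. Tjp1, the gene of the scaffold ZO-1 that holds claudin tails, had 19.5, 18.1 and 19.0 FPKM (18.9 ± 0.691 FPKM). Tjp3, an epithelial relative, was listed at 0. Cgnl1, which encodes paracingulin, found at both kinds of junction, had 4.09, 3.47 and 3.27 FPKM (3.61 ± 0.428 FPKM), and its epithelial relative Cgn was listed at 0. A list of 21 further tight junction and polarity genes had 12 detected. The highest were the junction-bound GTPase activator gene Arhgef2 (79.3 ± 3.24 FPKM), the many-PDZ scaffold Mpdz (45.96 ± 1.64 FPKM), Ybx3, a transcription factor that ZO-1 binds (39.4 ± 1.56 FPKM), and the polarity gene Pard6g (30.7 ± 0.989 FPKM). Crb3, Ildr1 and Marveld2, of which the last encodes tricellulin, were listed at 0.

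The JAM family was detected in full and with 3 of its 4 genes at much higher levels than Tjp1. Esam, an adhesion molecule of endothelium and platelets (ENSMUSG00000001946, chromosome 9, 37528078 to 37538319, plus strand), had 257, 264 and 279 FPKM (267 ± 11.5 FPKM). Jam3 (JAM-C) had 221, 228 and 233 FPKM (227 ± 5.94 FPKM), and F11r (JAM-A) had 186, 194 and 192 FPKM (191 ± 4.33 FPKM). The aliquot ranges of Esam, Jam3 and F11r did not overlap as deposited, but with the longest transcripts as lengths Jam3 (188 FPKM) stood above Esam (123 FPKM). Jam2 (JAM-B), a partner that JAM-C binds across the gap, had 6.59, 5.49 and 6.19 FPKM (6.09 ± 0.556 FPKM). The log2 ratio of Jam2 to Jam3 was -5.01 ± 0.134 and that of Esam to Jam2 was 5.24 ± 0.137. The log2 ratio of F11r to Jam3 was -0.25 ± 0.0226 as deposited and -1.03 with the longest transcripts as lengths. Summed, the family had 670.5 to 711 FPKM.

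**Figure D2:**
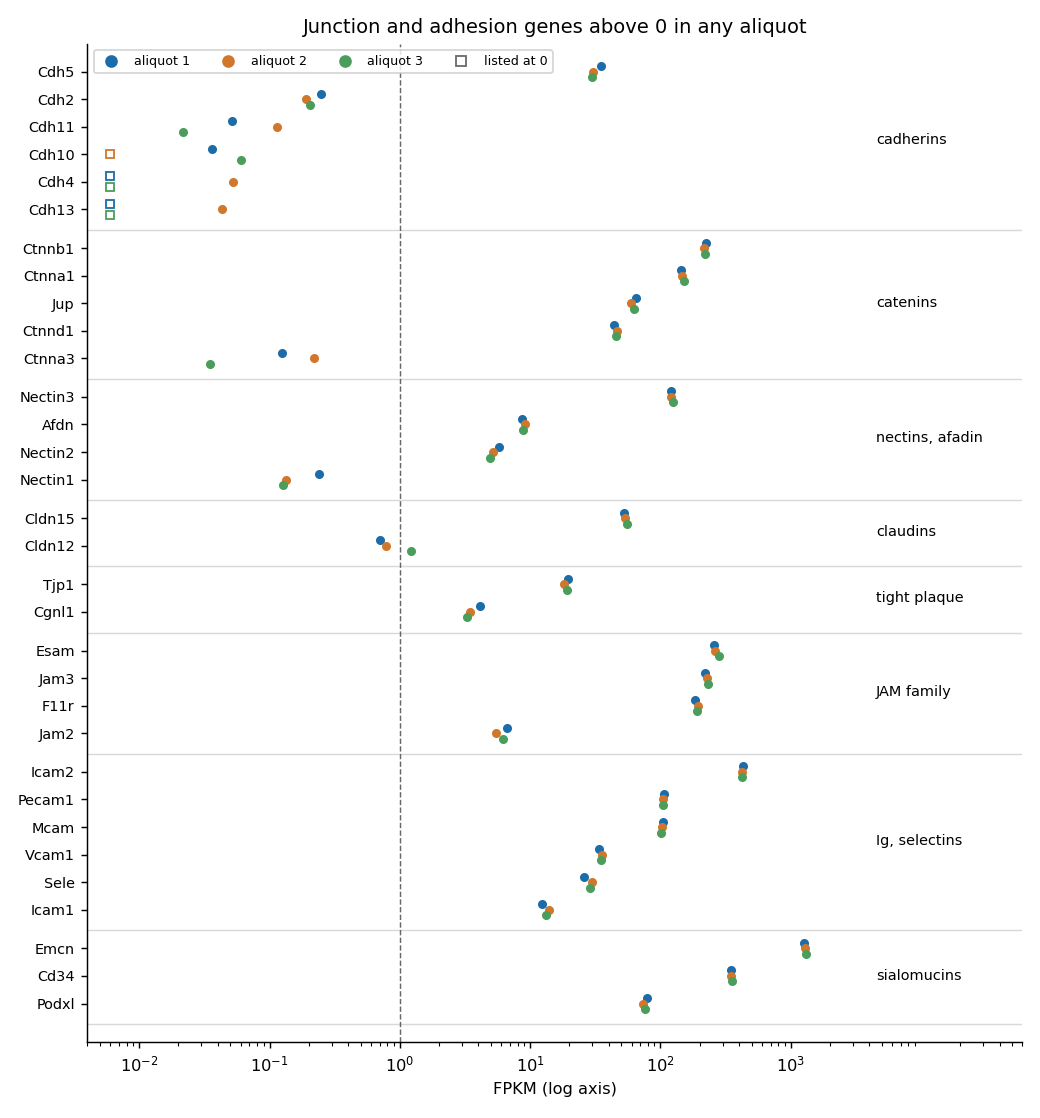
FPKM (horizontal axis, log scale) of 32 genes above 0 in any aliquot, grouped by family, with 1 filled point per aliquot, open squares at the left edge for an aliquot listed at 0, and a dashed line at 1 FPKM. Cdh5 is the only cadherin above the line, Cldn15 is the only claudin above it in every aliquot (Cldn12 passes it in aliquot 3), and the JAM genes and sialomucins lie wholly above it.

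Among the molecules that blood cells and neighbouring endothelial cells hold on to, Icam2 was the highest. ICAM-2 is present on resting endothelium (Icam2, ENSMUSG00000001029, chromosome 11, 106377656 to 106388075, minus strand), and its gene had 431, 425 and 421 FPKM (426 ± 4.92 FPKM). Pecam1, on the same chromosome, encodes CD31, which endothelial cells bind in each other. It had 106, 104 and 105 FPKM, and since it helped to choose the endothelial wells its level is a description only. The log2 ratio of Cdh5 to Pecam1 was -1.70 ± 0.102 as deposited and -1.23 with the longest transcripts as lengths. Mcam, which encodes CD146 of endothelium and pericytes, had 104, 103 and 102 FPKM (103 ± 1.01 FPKM).

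The genes that inflammatory signals are known to induce were detected as well. Vcam1, the ligand of the integrin VLA-4, had 34.0, 35.7 and 35.0 FPKM (34.9 ± 0.840 FPKM). Icam1, the ligand of leukocyte integrins, had 12.3, 13.9 and 13.3 FPKM (13.1 ± 0.777 FPKM). Sele, the gene of E-selectin, on which leukocytes roll, had 26.0, 29.7 and 28.6 FPKM (28.1 ± 1.88 FPKM) from 2509 reads. Each was far below Icam2, with log2 ratios of Icam2 of 3.57 ± 0.0473 to Vcam1 and 4.92 ± 0.0931 to Icam1. With the longest transcripts as lengths these were 2.97 and 4.05. Selp, the gene of P-selectin, lies 57586 bases from Sele on chromosome 1 and was listed at 0 in every aliquot, and 14.1% of its exon bases overlap RNA genes of the opposite strand. Icam4 and Icam5, neighbours of Icam1 on chromosome 9, were listed at 0 too. Of the exon bases of Icam5, 26.8% overlap an RNA gene of the opposite strand. All leukocyte markers were listed at 0, as given above. Of 9 measured genes of leukocyte passage 4 were detected: Cd47 with 95.4 ± 1.35 FPKM, Alcam with 77.7 ± 1.24 FPKM, the VLA-4 subunit gene Itga4 with 49.3 ± 2.52 FPKM and Cd99l2 with 20.7 ± 0.682 FPKM. The selectin ligand gene Glycam1, the leukocyte integrin gene Itgal and the neural adhesion gene L1cam were listed at 0.

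Sialomucins coat the capillary surface with negative charge. Emcn, the gene of endomucin (ENSMUSG00000054690, chromosome 3, 137341067 to 137432185, plus strand), was the highest of all 80 genes with 1259.7, 1283 and 1304 FPKM from 97594 reads. It held rank 35 among protein-coding genes and 74.9% ± 0.300 of the summed sialomucin FPKM. Cd34 had 351, 351 and 357 FPKM (353 ± 3.36 FPKM). Podxl, the gene of podocalyxin, had 78.2, 73.9 and 75.7 FPKM, and the log2 ratio of Emcn to Podxl was 4.06 ± 0.0590. Podocytes make podocalyxin as well as endothelium, and podocyte markers were at measurable levels in these libraries (7 of 10 detected, with Wt1 at 101 ± 3.18 and Nphs1 at 37.6 ± 2.37 FPKM). Their part in the Podxl level was not tested. All 5 genes that link podocalyxin to actin were detected, led by moesin (Msn, 241 ± 2.69 FPKM), radixin (Rdx, 229 ± 4.84 FPKM), Slc9a3r2 (87.5 ± 3.14 FPKM) and Slc9a3r1 (11.2 ± 1.20 FPKM). The lowest, the ezrin gene Ezr, lay near the limit with 2.01, 1.71 and 1.44 FPKM from 99 reads.

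Set in order, the 25 detected genes ran from Emcn through Icam2, Cd34, Esam and Jam3 at the top down to Cgnl1. Of these 11 had a mean of at least 100 FPKM and 20 of at least 10 FPKM. In 4 of the 24 neighbouring pairs of this order the aliquot ranges overlapped, among them Jam3 with Ctnnb1, Vcam1 with Cdh5, and Jam2 with Nectin2. The lengths that the values imply were shorter than the longest annotated transcript for most of them, by more than 1.5 times for 12, and by 4.78 times for Nectin3. With the longest transcripts as lengths all 25 were still detected. Cd34 (293 FPKM) then stood above Icam2 (234 FPKM), Nectin3 (25.4 FPKM) and Jup (26.5 FPKM) fell below Cdh5 (31.7 FPKM), and Cldn15 (41.4 FPKM) stood just above Podxl (40.4 FPKM).

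**Figure D3:**
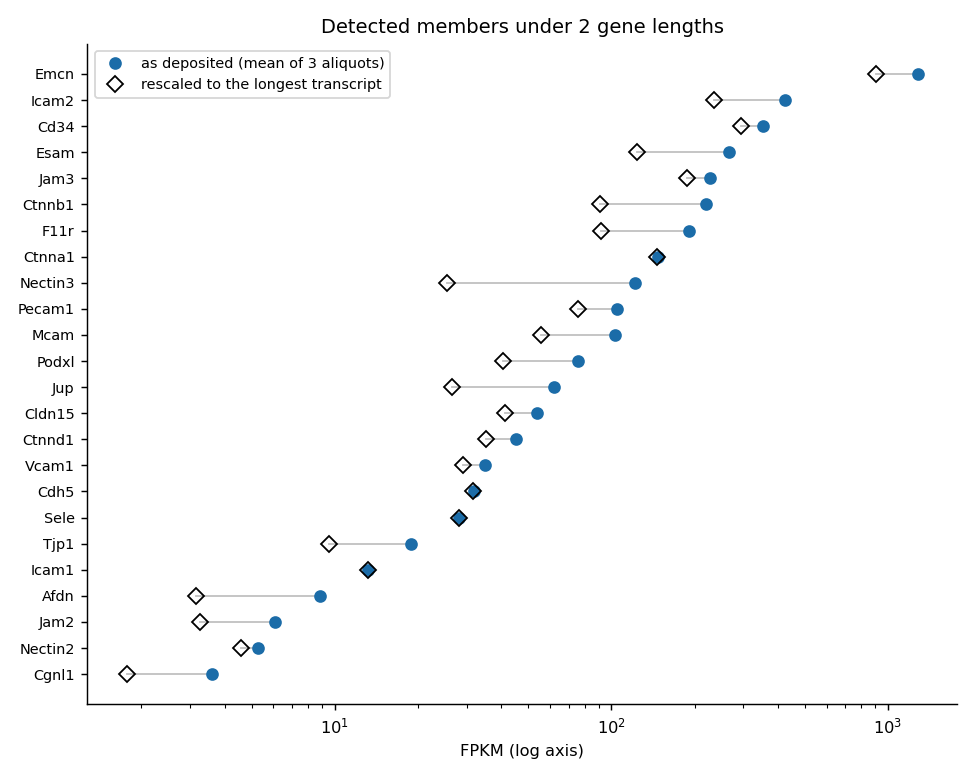
Mean FPKM over 3 aliquots (horizontal axis, log scale) of 24 detected genes, as deposited (filled circles) and rescaled to the longest annotated transcript (open diamonds), in the order of the deposited means. Nectin3 moves the furthest, from 121 to 25.4 FPKM, while Cdh5, Sele and Icam1 hardly move.

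**Figure D4:**
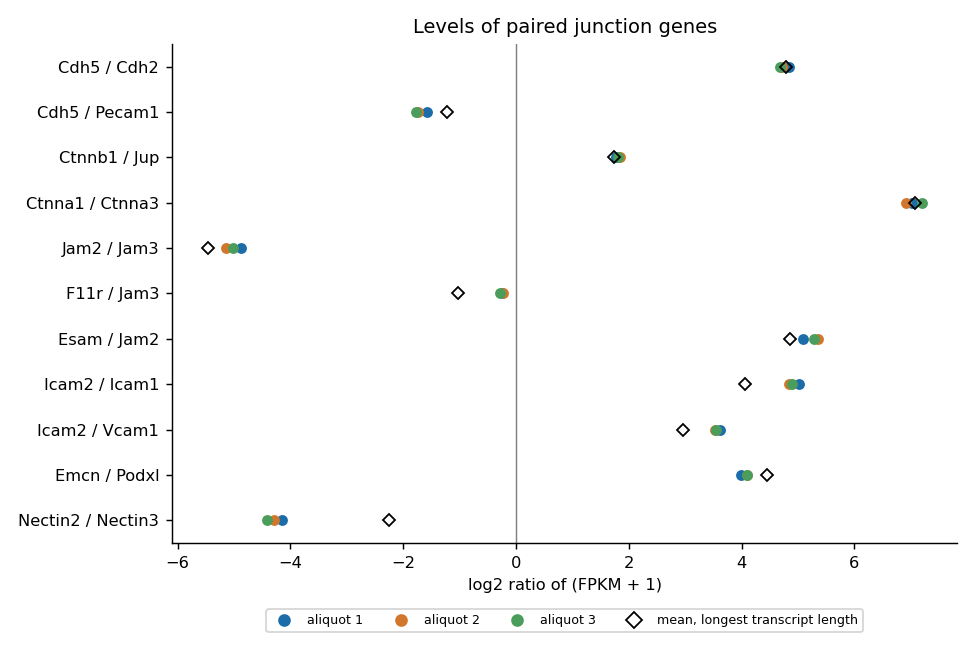
Log2 ratio of FPKM + 1 (horizontal axis) for 11 pairs of junction genes, with 1 filled point per aliquot and an open diamond for the mean when lengths are taken from the longest transcript. Every pair keeps its sign, and the diamond lies furthest from the points for Nectin2 to Nectin3 (-2.25 against a mean of -4.28).

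The aliquots gave these genes nearly the same levels, with a coefficient of variation of 0.954% to 11.9% (median 2.85%) over the 25 detected ones, which rested on 363 to 97594 reads each. Of 26 genes with at least 30 reads, 4 had an unadjusted chi-square p under 0.05 (15.4%), against 11.4% of the 9120 genes tested. After adjustment 2 differed between aliquots beyond sampling noise, or 7.69%, against 1.09% of all genes tested. These were Emcn (chi-square test of recovered reads, Benjamini-Hochberg adjusted p = 0.013), which was lowest in aliquot 1, and Cdh5 (chi-square test, adjusted p = 0.020), which was highest there. Neither call held without aliquot 1 or without aliquot 3. There 0 of the 26 genes passed, with 2 and 4 of them at an unadjusted p under 0.05. The coefficient of variation was 1.73% for Emcn, below the median of 2.85%, and 8.51% for Cdh5, above it. Reads from amplified cDNA are not independent molecules, so the test covers counting error alone.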

How the data were processed

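The 3 cDNA aliquots of 1 pool were sequenced. The authors deposited FPKM values, made with TopHat2 2.0.12 and HTSeq 0.6.1 on GRCm38 per the submitters' processing notes. Their annotation release, gene length definition and strand setting: not given in the sources used here. A name table of the reference gave symbols to 37607 identifiers. GENCODE M21 (GRCm38), possibly another release than the authors used, gave coordinates, transcript lengths and exon overlaps with genes of the table. For library totals, each gene under 0.5 FPKM was taken as 1 read over its mean transcript length, and the commonest total was kept. Each gene then got the smallest length at which its 3 read numbers were whole (tolerance 0.0001 reads), or a multiple within 1 base of the mean transcript length. All 11142 genes above 0 had a solution. Read numbers can be too low by a common factor. The recovery and the chi-square step were tested on simulated data.

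Detection was at least 1 FPKM in every aliquot. Ratios were taken on log2(FPKM + 1), which understates those of low genes, for 11 of 14 chosen pairs. The pairs with Ctnnd2 and Cgn gave none, since these are listed at 0. Recovered reads of genes with at least 30 were tested against the library totals by chi-square with Benjamini-Hochberg adjustment over all such genes at 0.05, for library noise only, since the deposited unit is FPKM. Copies were sought with BLAST 2.17.0, and other steps used Python 3.11.15 and SciPy 1.17.1. The genes, lists and pairs were chosen with earlier results of these data known. Named were all detected genes, up to 3 highest below the limit per family, genes at 0 in families of up to 12 and Cldn5, both genes of each pair, and up to 4 highest and 3 lowest of each other list. Alternatives were other detection limits, a pseudocount of 0.1 FPKM, longest-transcript lengths, members above 0, at least 100 reads, leaving out each aliquot, and, chosen after seeing the data, leaving out cadherins and claudins. The regulators of Cldn5 or Cdh5 were all named. Cd99 was matched to no row. A few genes and 1 pair are not reported here, though counts include the genes.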

Additional observations from a re-analysis of the deposited data

How the results depend on the processing

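The count of 25 detected genes was 26 at 0.5 FPKM, 23 at 5 FPKM and 25 by the mean, with longest-transcript lengths and without any 1 aliquot (25 to 25). Without cadherins and claudins, an alternative chosen after seeing the data, it was 23 of 34. The median level was 0 FPKM over all 80 genes, 0 without any 1 aliquot, and 31.8 FPKM over the 33 above 0. No pair changed sign. With a pseudocount of 0.1 FPKM the log2 ratio moved beyond its SD to 6.66 for Cdh5 to Cdh2, 9.43 for Ctnna1 to Ctnna3, -5.20 for Jam2 to Jam3, 5.43 for Esam to Jam2 and -4.50 for Nectin2 to Nectin3. With longest-transcript lengths it moved to -1.23 for Cdh5 to Pecam1, 1.74 for Ctnnb1 to Jup, -5.47 for Jam2 to Jam3, -1.03 for F11r to Jam3, 4.87 for Esam to Jam2, 4.05 for Icam2 to Icam1, 2.97 for Icam2 to Vcam1, 4.45 for Emcn to Podxl and -2.25 for Nectin2 to Nectin3. Genes beyond sampling noise numbered 2 with at least 100 reads and 0 to 2 when 1 aliquot was left out, with fewer samples in the test. No paired analysis was possible because the aliquots form 1 group. Genes with few reads, such as Cdh2 and Cldn12, have levels limited by depth.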

Other observations

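Desmosomes, the strong spot junctions of epithelium and heart muscle, had 0 of 9 genes detected, and all 9, such as the desmocollins Dsc2 and Dsc3 and the desmoglein Dsg2, were listed at 0. Jup, which desmosomes and adherens junctions share, was detected at 62.1 FPKM. Among 10 protocadherins and Fat cadherins 7 were detected. Pcdh12, also called VE-cadherin-2, had 75.6, 74.3 and 75.9 FPKM (75.3 ± 0.892 FPKM), which placed its range above that of Cdh5 in every aliquot. It was followed by Pcdh18 (50.03 ± 1.10 FPKM), the giant cadherin gene Fat1 (13.5 ± 0.0609 FPKM) and Pcdh1 (11.3 ± 0.772 FPKM), while Pcdh17 had 6 reads and Celsr1 and Pcdh19 were listed at 0.

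The slit diaphragm is the junction between podocyte foot processes. Of 7 of its genes 3 were detected, among them Nphs1, the gene of nephrin, with 40.3, 35.7 and 36.9 FPKM, and the adaptor gene Cd2ap with 28.9, 29.1 and 27.7 FPKM. Nephrin's partner gene Kirrel had 0.631 ± 0.205 FPKM, and Kirrel2 and Kirrel3 were listed at 0. Podocyte cells were not among those the labels name as pooled, and the source of these reads was not tested.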
